A study of Homo sapiens with 6 samples.

Results

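The genes described here encode the SNARE proteins and the factors that arm, guard and recycle them: 39 members of the 26699 genes in the deposited count table, found by an exact match of the symbol. SNAREs are small coiled-coil proteins that sit on vesicles and on their target membranes. A Qa, a Qb and a Qc helix from one membrane and an R helix from the other zip into a bundle that pulls the membranes together, and in the SNAP-25 family a protein supplies both the Qb and the Qc helix. Sec1/Munc18 proteins such as STXBP2 and STXBP3 clasp syntaxins and guide assembly, and the ATPase NSF with its SNAP adaptors NAPA and NAPG takes spent bundles apart for reuse. By class the members were 10 Qa, 5 Qb, 6 Qc, 4 Qbc and 9 R SNAREs and 5 fusion factors.

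Poly(A) RNA of the ovarian cancer line OVCA433, an established human cell line, was sequenced in 3 libraries of a group labelled OVSOGA1sinc and 3 of a group labelled OVSOGA1si, called sinc and si below. Going by its title, the series asks what a deficiency of SOGA1 does to expression in ovarian cancer cells; the labels give neither the reagent, its sequence nor the time, and they leave unsaid whether replicate libraries were grown separately. The p-values therefore speak only of the spread among the 6 libraries, part or all of which may be technical. Total counts ran from 33778707 to 44130601 per library. SOGA1 stood at 64.4, 59.7 and 63.9 CPM (the gene's count relative to its TMM-scaled library total) in sinc replicates 1, 2 and 3 and at 25.3, 27.2 and 20.2 CPM in si replicates 1, 2 and 3, a mean of 38.7% of that in sinc (exact two-sided permutation p = 0.1, the smallest that 3 against 3 allows). Of the cell type markers, KRT7, KRT8, KRT18 and PAX8 were abundant, at 2298, 2208, 1915 and 687 CPM in sinc. EPCAM was low, with 1.22 CPM, and CLDN3 and WT1 were at or near 0, with 0.276 and 0.0485 CPM. CDH1 and MUC16, also on the ovarian and epithelial list, were not found in the deposited counts. RBFOX3 (neuron), CD68 (immune) and CDH5 (endothelial) stood at 46.3, 21.7 and 11.3 CPM in sinc. Each was the highest of its list, the others found lying at 5.79 CPM (SYT1) or below. The summed fibroblast markers, nearly all of it COL1A1, lay between 103 and 108 CPM in sinc and between 128 and 141 CPM in si, with DCN at or near 0; the part of such transcripts in the results was not tested.

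All 39 members passed the filter on low counts. In si 2 members were higher, the syntaxin genes STX12 and STX5, and 4 were lower: STXBP3, NAPG, GOSR1 and BET1 (adjusted p below 0.05 edgeR quasi-likelihood, two-sided, Benjamini-Hochberg over 15562 genes, as for all adjusted p-values below). That is 15.4% of the members, beside 10.1% of all genes tested, so the family as a whole changed at a rate near the background. In bulk RNA, fewer cells with a transcript and less of it per cell cannot be told apart. The higher calls were 5.13% of members against 4.14% of all genes, and the lower calls 10.3% against 6.00%. The median change was 0.038 on the log2 scale, si minus sinc here and below, against 0.0058 over all genes. The CPM of the groups did not overlap for 16 members (41.0%, against 34.9% of all genes), 10 higher (18.1% of all genes) and 6 lower (16.8%). At an unadjusted p under 0.05 stood 13 of the 39 members and 29.1% of all genes. With upper-quartile scaling 4 members were higher (6.46% of all genes) and 4 lower (5.72%), SNAP47 and YKT6 being added. DESeq2 called 10 members, adding STX16 and VAMP8 to these, and 25.8% of the 11333 genes to which it gave an adjusted p. SNAP25 and VAMP5 were given none. With limma-voom the same 6 passed as by edgeR (11.0% of all genes). After a correction for transcript length and GC content 3 members passed (4.49% of all genes): STX12, GOSR1 and STXBP3. The 6 calls depended on single libraries: 0 members passed by edgeR without sinc replicate 1 (1.28% of all genes passed there, and 12 members had an unadjusted p under 0.05). Without sinc replicate 2 there were 3 (3.01% of all genes), without sinc replicate 3 there was 1 (1.91%), without si replicate 1 there were 3 (2.23%), without si replicate 2 there were 9 (16.1%) and without si replicate 3 there were 5 (9.16%). No direction among the 6 turned in any of these fits.

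**Figure D1:**
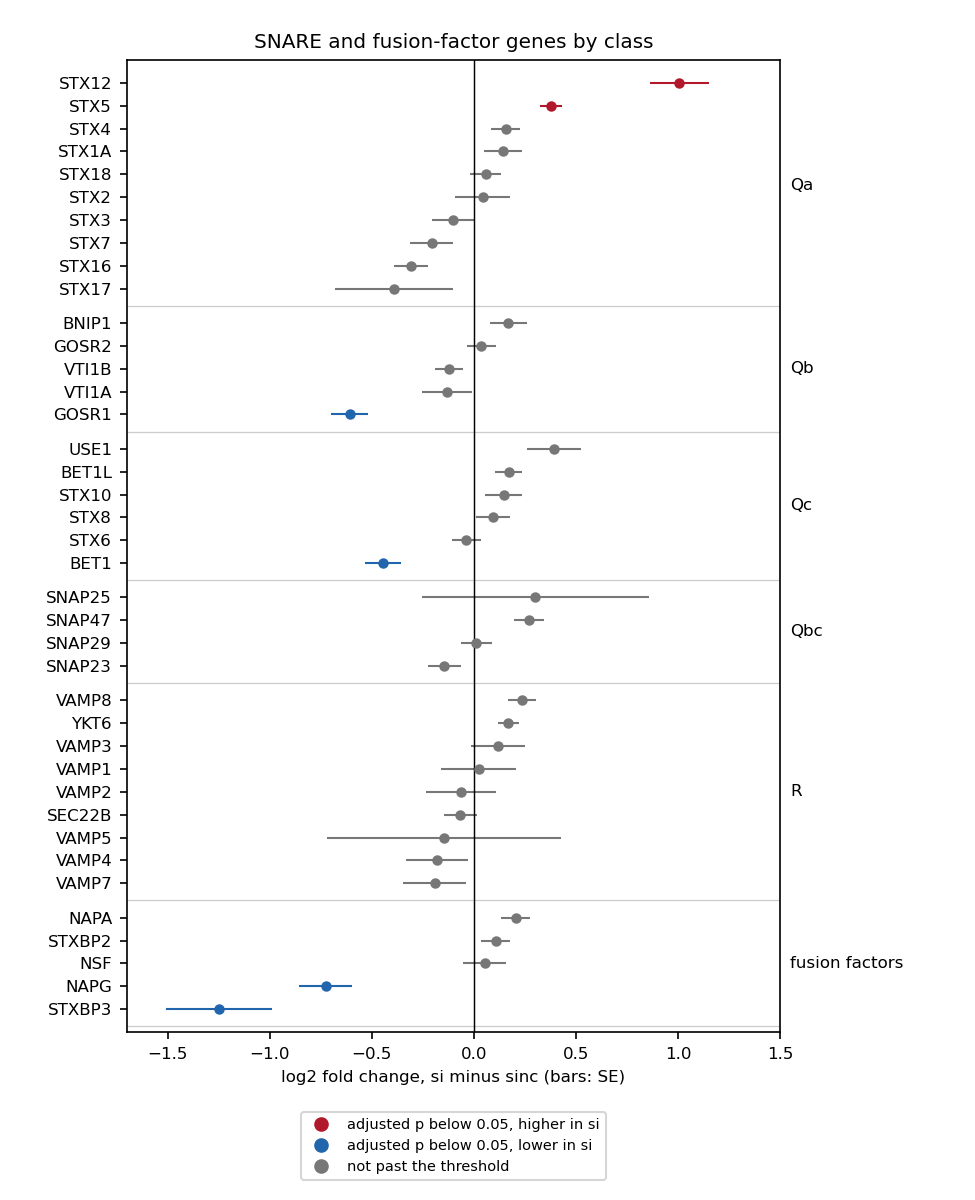
Log2 fold change (si minus sinc) of all 39 members on the horizontal axis, grouped by SNARE class; points are the fitted values over 3 libraries a group, bars their standard errors, red and blue the members past an adjusted p of 0.05. The 2 higher members are both Qa syntaxins, the 4 lower ones lie in the Qb and Qc classes and among the fusion factors, and no R or Qbc SNARE passed by edgeR as reported (2 R SNAREs and 1 Qbc SNARE had an unadjusted p under 0.05, and DESeq2 called these 3).

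Syntaxin 5 is the Qa SNARE of the early secretory pathway, where it pairs with GOSR2, BET1 and SEC22B for transport from the endoplasmic reticulum to the Golgi and with GOSR1, BET1L and YKT6 within the Golgi. STX5 (ENSG00000162236; chromosome 11, 62806897 to 62832088, minus strand; gene positions here and below are those of GENCODE 29 on GRCh38) was at 65.9, 68.5 and 65.3 CPM in sinc replicates 1, 2 and 3 and at 86.2, 86.2 and 87.0 CPM in the si replicates. The groups lay apart and the si libraries were nearly equal. STX5 rose by 0.38 (SE 0.06, adjusted p = 0.010). The call ended on leaving out si replicate 1, sinc replicate 1 or sinc replicate 3, with the replicate block, and after correction for transcript length and GC content, where the change was 0.23. With a library left out the change stayed between 0.36 and 0.40.

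By edgeR as reported, 0 of these 6 partners were called higher and 2 were called lower (4.14% and 6.00% of all genes). DESeq2 and upper-quartile scaling called YKT6 higher, where they called 11.5% (of those with an adjusted p) and 6.46% of all genes higher. GOSR1 (ENSG00000108587; chromosome 17, 30477362 to 30527592, plus strand), the Qb SNARE GS28 of the Golgi stack, was at 34.4, 35.1 and 37.5 CPM in sinc and at 23.7, 21.1 and 25.4 CPM in si. Every si library lay below every sinc library. GOSR1 fell by 0.61 (SE 0.09, adjusted p = 0.011), and this call ended without sinc replicate 1 or sinc replicate 3. BET1 (ENSG00000105829; chromosome 7, 93962762 to 94004382, minus strand), a Qc SNARE of vesicles leaving the endoplasmic reticulum, was at 30.3, 28.8 and 31.1 CPM in sinc and at 23.6, 20.3 and 22.5 CPM in si, again without overlap. BET1 fell by 0.44 (SE 0.09, adjusted p = 0.023). Its call is less firm: it ended without any of the 3 sinc libraries, without si replicate 1, with the replicate block, and after length and GC correction, where the change was -0.24.

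The related genes of the same pathway stood elsewhere. GOSR2, the Qb SNARE membrin and the counterpart of GOSR1 at the entry to the Golgi, was at 99.2, 97.2 and 100.2 CPM in sinc and at 97.9, 95.3 and 111 CPM in si, with overlapping groups (0.04, SE 0.07, adjusted p = 0.77). BET1L, the intra-Golgi Qc SNARE GS15, was at 48.6, 52.5 and 53.5 CPM in sinc and at 58.2, 56.8 and 58.9 CPM in si; the groups lay apart, upward, but the change of 0.17 (SE 0.06) did not pass (adjusted p = 0.13). YKT6, a lipid-anchored R SNARE and the most abundant member by CPM, was at 178, 179 and 182 CPM in sinc and at 204, 196 and 206 CPM in si. Its groups lay apart as well, and its change of 0.17 (SE 0.05) did not pass (adjusted p = 0.075). SEC22B, the longin-type R SNARE of transport from the endoplasmic reticulum, stood at 145 ± 11.7 CPM in sinc, against 139 ± 10.5 CPM in si (SD, n = 3 each), with a change of -0.07.

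The levels of BET1 and GOSR1 were also set against those of their counterparts within each library, a ratio that no scaling between libraries touches. The ratios were chosen after the values were seen and are given without a test. Per kilobase of transcript, BET1 counted 0.292, 0.257 and 0.273 for each BET1L in sinc replicates 1, 2 and 3 and 0.190, 0.167 and 0.179 in the si replicates. GOSR1 counted 0.408, 0.425 and 0.441 for each GOSR2 in sinc and 0.285, 0.261 and 0.269 in si. Both ratios were lower in every si library than in any sinc library, at 65.2% and 64.0% of the sinc mean. The ratios carry no correction for length and GC content: with it the changes were -0.24 for BET1 and -0.11 for BET1L, so that most of that difference went, and -0.61 for GOSR1 and -0.04 for GOSR2.

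**Figure D2:**
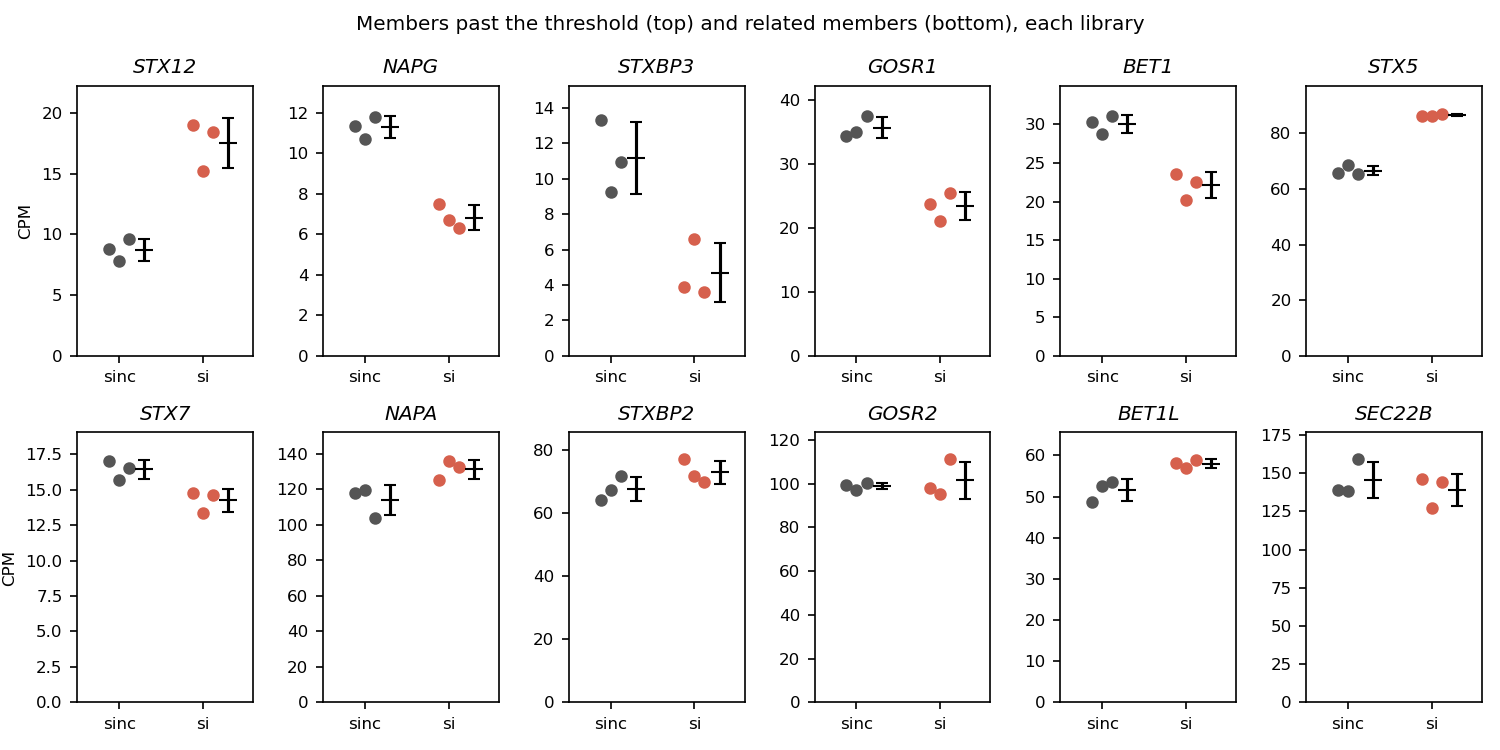
CPM (vertical axis, from 0) of the 6 members past the threshold in the top row and of a related member below each, the paralog or counterpart for 5 of them and the partner SEC22B for STX5; dots are the 3 libraries of each group, the bar beside them mean ± SD. In the top row no si library reaches into the range of the sinc libraries, while GOSR2, STXBP2 and SEC22B overlap in the bottom row.

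Retrograde traffic from the Golgi to the endoplasmic reticulum uses STX18 (Qa), BNIP1 (the Qb SNARE Sec20) and USE1 (Qc), again with SEC22B. None of the 3 passed by edgeR, and USE1 had an unadjusted p of 0.018. BNIP1 was at 21.7, 22.3 and 20.8 CPM in sinc and at 25.2, 22.5 and 25.2 CPM in si, a change of 0.17 (SE 0.09, adjusted p = 0.26). USE1 stood at 6.09 ± 0.396 CPM in sinc, against 8.01 ± 0.352 CPM in si (SD, n = 3 each) with groups apart, the largest positive change among the members that did not pass (0.40, SE 0.13, adjusted p = 0.096). STX18 was at 30.0 ± 1.94 CPM in sinc, against 31.3 ± 0.372 CPM in si. The NRZ complex tethers vesicles to these SNAREs. Of its 3 genes NBAS fell by 0.50 (SE 0.08, adjusted p = 0.013), its mean going from 43.7 ± 0.571 to 30.9 ± 2.76 CPM (SD, n = 3 each), and RINT1 and ZW10 did not pass.

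In the endosomal system 1 SNARE passed, STX12. It encodes the Qa SNARE also known as syntaxin 13, which acts in early and recycling endosomes. STX12 (ENSG00000117758; chromosome 1, 27773183 to 27824452, plus strand) was at 8.83, 7.78 and 9.60 CPM in sinc replicates 1, 2 and 3 and at 19.0, 15.2 and 18.4 CPM in si, with no overlap. Its si mean was 2.01 times the sinc mean (log2 fold change 1.01, SE 0.14, adjusted p = 0.0086). Its call narrowly ended without sinc replicate 1 (adjusted p = 0.053, the highest of the 6 fits that leave out a library, whose lowest was 0.0038) and held in the other 15 alternatives tried, with changes between 0.93 and 1.26 over all 16. STX7, its closest relative in the family, encodes the Qa SNARE of late endosomes. It was at 17.0, 15.7 and 16.5 CPM in sinc and at 14.8, 13.3 and 14.6 CPM in si. The groups lay apart, downward, and the change of -0.21 (SE 0.11) did not pass (adjusted p = 0.24). After length and GC correction it turned to 0.47, also without passing (SE 0.33, adjusted p = 0.45), where that of STX12 was 1.26. Per kilobase of transcript, STX12 counted 2.66, 2.54 and 2.98 for each STX7 in sinc and 6.61, 5.86 and 6.46 in si. Its relation to STX7 thus shifted 2.32-fold, in every library, again without a test.

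The partners of STX7 in late endosomes are VTI1B (Qb), STX8 (Qc) and VAMP7 or VAMP8 (R). VAMP8 was at 63.7, 64.8 and 58.9 CPM in sinc and at 75.4, 76.1 and 69.2 CPM in si. Its groups lay apart, and its change of 0.24 (SE 0.07) did not pass (adjusted p = 0.069), though DESeq2 called it. After length and GC correction the change was 0.03 (adjusted p = 0.87). STX8 was at 32.0, 33.6 and 32.4 CPM in sinc and at 38.4, 33.6 and 32.6 CPM in si, with overlap (0.09, SE 0.08). VTI1B, at 58.9 ± 2.09 CPM in sinc, against 54.2 ± 3.11 CPM in si, and VAMP7, at 8.74 ± 0.920 and 7.65 ± 0.898 CPM (SD, n = 3 each), had changes of -0.12 and -0.19. STX17, the Qa SNARE of autophagosomes, was at 12.4, 10.8 and 8.12 CPM in sinc and at 5.79, 11.7 and 6.43 CPM in si. Here si replicate 2 stood with the sinc libraries, the change was -0.39 (SE 0.29, adjusted p = 0.42), and of the 16 alternatives STX17 passed in the fit without that library. SNAP29, its Qbc partner, was at 36.2, 36.1 and 35.9 CPM in sinc and at 39.1, 36.5 and 33.5 CPM in si (0.01, SE 0.08).

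Transport from endosomes to the trans-Golgi network uses STX16 (Qa), VTI1A (Qb), STX6 or STX10 (Qc) and VAMP3 or VAMP4 (R). STX16 came closest to the threshold: it was at 98.7, 91.7 and 90.8 CPM in sinc and at 77.4, 82.1 and 67.6 CPM in si, without overlap, and its change of -0.31 (SE 0.08) just missed (adjusted p = 0.056). It passed under 5 alternatives, among them DESeq2 and total-count scaling. After length and GC correction its change was -0.09 (adjusted p = 0.56). A read-through gene, STX16-NPEPL1, is annotated over 28.4% of its exon bases, so reads may have been split between the genes. STX10 was at 45.1, 47.8 and 53.9 CPM in sinc and at 55.8, 57.3 and 49.5 CPM in si, and STX6 at 55.7 ± 2.51 and 54.2 ± 2.99 CPM (SD, n = 3 each), so neither separated the groups. VTI1A stood at 12.3 ± 0.857 CPM in sinc, against 11.2 ± 0.729 CPM in si, and VAMP4 at 8.32 ± 1.12 and 7.33 ± 0.615 CPM (SD, n = 3 each). VAMP3, the R SNARE cellubrevin of recycling vesicles, was at 86.9, 83.7 and 85.9 CPM in sinc and at 89.8, 75.9 and 113 CPM in si, where the si libraries fell on both sides of the sinc libraries.

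At the plasma membrane a regulator passed, STXBP3, described after the SNAREs it serves. STX4, the broadly used Qa SNARE of exocytosis, was at 34.1, 37.1 and 35.8 CPM in sinc and at 39.2, 38.2 and 41.9 CPM in si; the groups lay apart, with a change of 0.16 (SE 0.07, adjusted p = 0.19). STX1A, best known from neuronal synapses, was at 44.0, 46.1 and 37.5 CPM in sinc and at 49.8, 45.1 and 45.8 CPM in si (0.14, SE 0.09). The remaining plasma membrane syntaxins STX2 and STX3 had changes of 0.04 and -0.10. SNAP23, the common Qbc SNARE outside neurons, was at 46.4, 46.9 and 51.0 CPM in sinc and at 42.8, 40.6 and 47.2 CPM in si (-0.14, SE 0.08, adjusted p = 0.28). SNAP47, a member of the SNAP-25 family, was at 55.4, 57.0 and 59.2 CPM in sinc and at 70.5, 63.2 and 73.1 CPM in si, apart and upward, and just missed the threshold (0.27, SE 0.07, adjusted p = 0.057). JMJD4 on the opposite strand covers 35.3% of its exon bases; whether the counting used strand is not given in the sources used here.

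STXBP3 encodes Munc18c, the Sec1/Munc18 protein that binds STX4. STXBP3 (ENSG00000116266; chromosome 1, 108746674 to 108809526, plus strand) was at 13.3, 9.25 and 10.9 CPM in sinc and at 3.87, 6.60 and 3.63 CPM in si, without overlap but with si replicate 2 above the other si libraries. Its si mean was 42.1% of the sinc mean (log2 fold change -1.25, SE 0.26, adjusted p = 0.027), the largest change of any member. This call ended in 5 of the 6 fits that left out a library, all but the fit without si replicate 2, where the change was -1.58; the others gave between -1.10 and -1.37. It ended with the replicate block as well, at -1.28, and held after length and GC correction, at -1.04. STXBP2, the related Munc18-2, was at 64.1, 67.3 and 71.5 CPM in sinc and at 77.1, 71.7 and 69.9 CPM in si, overlapping (0.11, SE 0.07, adjusted p = 0.35). Per kilobase, STXBP3 counted 0.161, 0.106 and 0.118 for each STXBP2 in sinc and 0.0388, 0.0710 and 0.0401 in si. Here too no correction for length and GC content was made, and GC content was 35.4% for STXBP3 and 60.8% for STXBP2.

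Among the recycling factors the minor SNAP adaptor changed and the major one did not pass. NAPG (ENSG00000134265; chromosome 18, 10525905 to 10552761, plus strand), which encodes gamma-SNAP, was at 11.3, 10.7 and 11.8 CPM in sinc and at 7.48, 6.70 and 6.29 CPM in si, a clean separation. NAPG fell by 0.73 (SE 0.13, adjusted p = 0.018), to 60.5% of the sinc mean, and the call ended without any of the 3 sinc libraries, with the replicate block and after length and GC correction (-0.41). NAPA, which encodes alpha-SNAP, was at 118, 120 and 104 CPM in sinc and at 126, 136 and 133 CPM in si, apart and upward, with a change of 0.21 (SE 0.07, adjusted p = 0.11). Per kilobase, NAPG counted 0.050, 0.0463 and 0.0586 for each NAPA in sinc and 0.0309, 0.0256 and 0.0246 in si, a mean of 52.3% of the sinc ratio. This ratio carries no correction for length and GC content, and the 2 transcripts differ in GC content (37.6% for NAPG, 59.2% for NAPA). NSF, the ATPase both adaptors serve, was at 60.4, 56.8 and 71.4 CPM in sinc and at 65.2, 59.1 and 71.3 CPM in si (0.05, SE 0.11, adjusted p = 0.78).

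SNAP25 and VAMP5 were the scarcest members. SNAP25, the Qbc SNARE of synaptic vesicle release, stood at 0.274 ± 0.164 CPM in sinc, against 0.338 ± 0.119 CPM in si, and VAMP5, an R SNARE best known from muscle, at 0.543 ± 0.126 and 0.485 ± 0.374 CPM (SD, n = 3 each). VAMP1 and VAMP2, the synaptobrevins, were at 3.31 ± 0.448 and 15.5 ± 1.16 CPM in sinc and at 3.36 ± 0.292 and 14.8 ± 3.24 CPM in si. For SNAP25 and VAMP5 the standard errors were 0.56 and 0.57, so that changes near 2-fold were not detectable in these libraries. Over the 33 members that did not pass, the standard error was at most 0.15 for 26, and 28 had a change smaller than 0.25 in size.

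Levels can be compared between genes only per length, here as mean CPM per kilobase of the coding transcript with the longest coding sequence. In sinc the R SNAREs were led by VAMP8 at 80.8, YKT6 at 66.5 and VAMP3 at 38.8, the Qb SNAREs by GOSR2 at 88.7 and the Qc SNAREs by BET1L at 80.9 CPM per kilobase. STX5 led the Qa SNAREs with 37.1, ahead of STX4 with 24.1 and STX1A with 20.3. STX12, STXBP3 and NAPG, which had the largest changes, were among the scarce members of their classes, at 2.84, 4.51 and 3.18 CPM per kilobase in sinc. The transcript taken for STX7 is 15791 bases long and that for GOSR1 947. If other forms prevail in these cells, the level per kilobase may be understated for STX7 and overstated for GOSR1. The changes of both after length and GC correction rest on the same lengths.

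**Figure D3:**
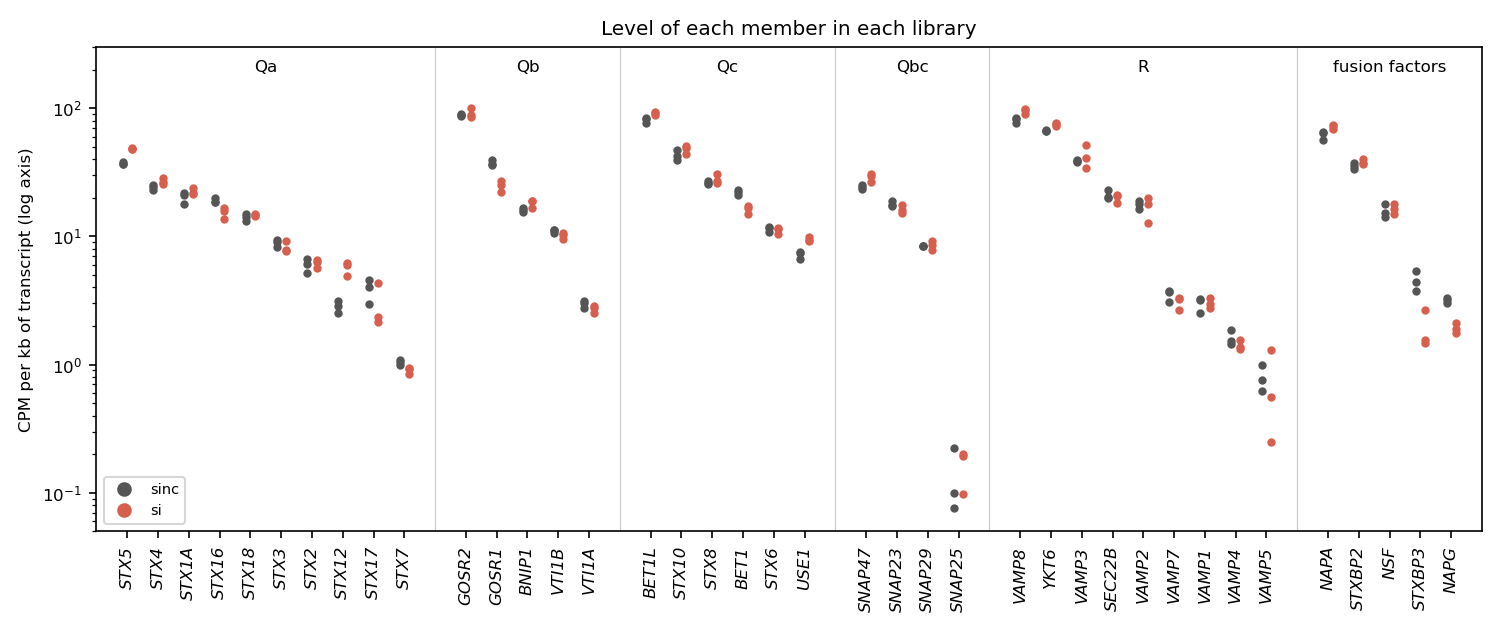
Level of each member in each library, as CPM per kilobase of transcript on a log axis, ordered within each SNARE class by the mean; grey dots are the 3 sinc libraries and red dots the 3 si libraries. VAMP8, GOSR2 and BET1L stand at the top of their classes, SNAP25 lies lowest of all, and the separation of the groups for STX12, STXBP3 and NAPG occurs at low levels.

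Transcript length moved with the changes across the whole table. In the shortest tercile of genes with a coding transcript (under 2292 bases) the median change was 0.14, in the longest tercile (from 4128 bases) -0.24. Among the members the medians were 0.12 over 21 short, -0.12 over 10 middle and -0.13 over 8 long transcripts. STX5, with 1794 bases, rose in the shortest tercile, of which 8.95% of all genes were higher. GOSR1 and BET1, with 947 and 1357 bases, fell and belong to the same tercile, of which 2.24% were lower, though BET1 lost its call after the correction. The place of GOSR1 in that tercile rests on the transcript taken, and a longer form in these cells could move it to another. STX12, with 3079 bases, rose in the middle tercile, of which 3.93% were higher, and STXBP3 and NAPG, with 2478 and 3548 bases, fell in it, where 5.63% were lower.

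A short sequence was also compared. Among 15698 sequences of 7 bases scanned in the 3' UTRs of 12560 genes on the transcript strand, TGAAGTA went with the lowest changes after regression on length, GC content and abundance; an earlier scan of the same data had picked it too, so it is no independent evidence. It occurs in 11.7% of these 3' UTRs. After that regression the mean change of the genes with it differed by -0.086 from that of the others. By the calls as reported, which carry no such regression, 15.9% of the genes that hold it were lower, against 6.06% of the others. For scale, 13.6% of all genes in the longest tercile of transcripts were lower. Among the members, which were part of the scan, 6 hold it there (15.4%), with a median change of -0.17, against 0.058 for the other 33. These medians carry no correction for length and GC content. After it STX7, SEC22B, VTI1B and VTI1A stood above 0, and BET1 and STXBP3 at -0.24 and -1.04. Of the 4 members that fell, STXBP3 and BET1 hold it and GOSR1 and NAPG do not, although only 180 bases of 3' UTR were annotated on the GOSR1 transcript used. The sites are shown to let these members be compared with the place where SOGA1 itself holds the same 7 bases, in its coding sequence in exon 5 of 15. Capitals mark the 7 bases, and sequences are from GENCODE 29 transcripts on GRCh38, 5′ to 3′ on the strand of the gene:
SOGA1, coding sequence, chr20:36816177-36816201, minus strand: aggagctgcTGAAGTAccgctcgct
STXBP3, 3' UTR, chr1:108809213-108809237, plus strand: gtctcatgcTGAAGTAtagtttttg
BET1, 3' UTR, chr7:93993825-93993849, minus strand: ctgagctctTGAAGTAgtcagccag
SEC22B, 3' UTR, chr1:120155357-120155381, minus strand: ggctcctgcTGAAGTAatgatgatg
STX7, 3' UTR, chr6:132457769-132457793, minus strand: agaatgggcTGAAGTAagttgattg

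The run shared with SOGA1 around the 7 bases is 10 bases long in STXBP3 and 7 in BET1. SEC22B and STX7 hold 3 copies each, of which the one with the longest run is printed. The runs are of 11, 8 and 7 bases in SEC22B and of 9, 7 and 8 in STX7, and neither gene passed the test. VTI1A and VTI1B, with 1 copy and a run of 7 bases each, did not pass either. NSF holds the 7 bases in its coding sequence, as SOGA1 does, with a run of 7 bases, and did not pass. The part of these sites in the changes was not tested.

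**Figure D4:**
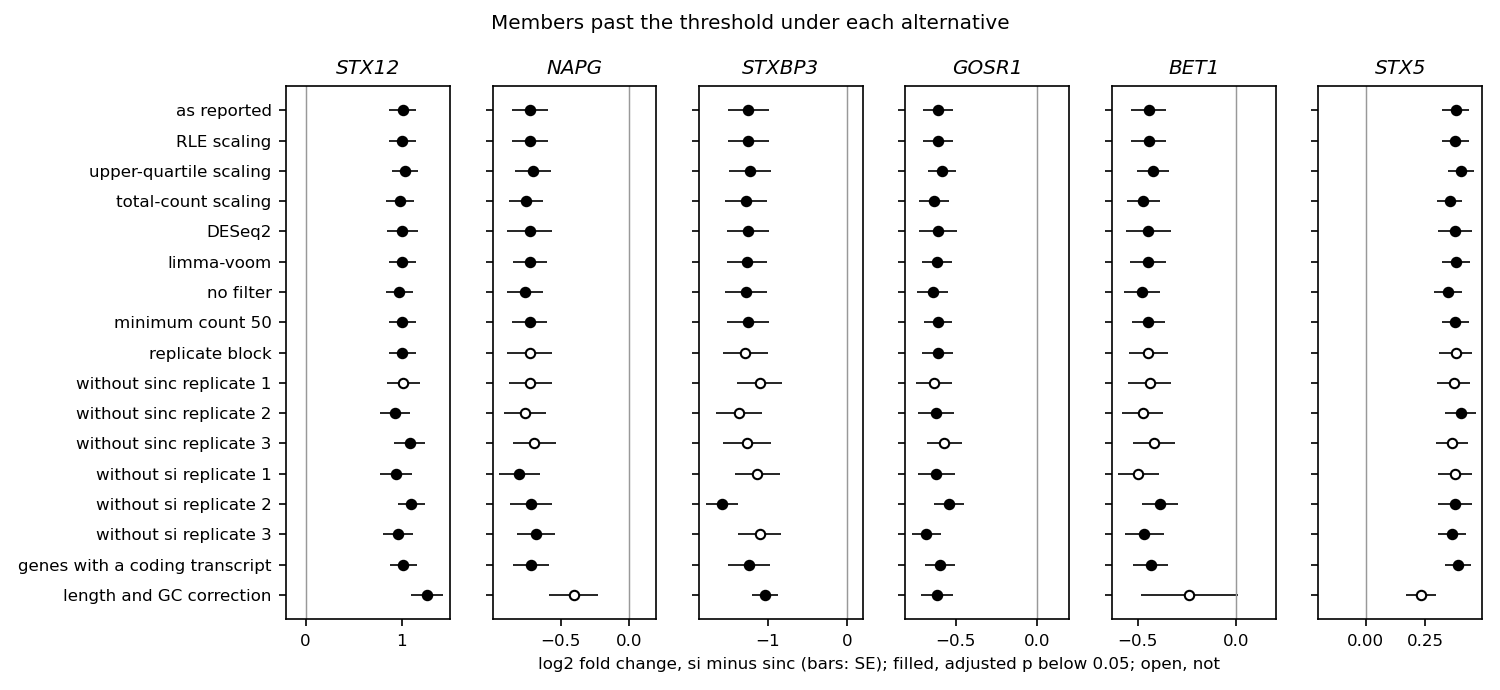
Log2 fold change (si minus sinc, horizontal axis, own scale in each panel) of the 6 members past the threshold, as reported in the top line and under each of 16 alternatives below it; bars are standard errors, filled points have an adjusted p below 0.05. Every point keeps its side of 0, STX12 loses its call in 1 alternative and GOSR1 in 2, and the fit without sinc replicate 1 leaves none of the 6 filled.

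Of the genes around the SNAREs, 96 in 9 lists of tethers, calcium sensors and regulators, 81 were tested, and 1 rose and 5 fell (7.41%, beside 10.1% of all genes), with a median change of -0.10. Beside NBAS these were single genes of different complexes. MYOF, the ferlin myoferlin of membrane repair, fell by 0.44 (SE 0.07), its mean going from 215 ± 15.9 to 159 ± 6.14 CPM (SD, n = 3 each). TRAPPC10 of the TRAPP complex, EXOC6B of the exocyst and VPS41 of the HOPS complex, which tethers late endosomes, fell by 0.53, 0.43 and 0.42 with adjusted p-values of 0.021, 0.037 and 0.027. SNAPIN, which encodes a SNAP-25-binding protein rather than a SNARE, rose by 0.41 (SE 0.08, adjusted p = 0.021), from 55.4 ± 3.53 to 73.7 ± 5.04 CPM (SD, n = 3 each). By list, 1 of 9 exocyst genes, 1 of 8 in HOPS and CORVET, 1 of 14 in TRAPP and 1 of 13 synaptotagmins and other calcium sensors were lower. By edgeR 0 of 8 COG genes, 0 of 5 GARP and EARP genes and 0 of 16 Sec1/Munc18 proteins and other regulators passed. At an unadjusted p under 0.05 these lists held 2, 1 and 3 lower genes, where 15.0% of all genes were lower. DESeq2 called 1, 0 and 2 lower, and 14.3% of all genes that had an adjusted p. With limma-voom 0, 0 and 1 were lower, and 6.64% of all genes. All 6 calls were lost without sinc replicate 1 or si replicate 1, fits in which 1.28% and 2.23% of all genes passed. Without si replicate 2, 13 of the 81 passed, where 16.1% of all genes did. None of the 6 passed after correction for length and GC content, where MYOF stood at -0.15, NBAS at -0.17, TRAPPC10 at -0.25 and VPS41 at -0.01.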

How the data were processed

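Per the labels' protocols, poly(A) RNA was made into dUTP strand-specific libraries with about 15 cycles of PCR. The authors deposited whole-number counts per gene; CASAVA and StringTie are named in the submitters' processing notes. The sources used here do not give their versions, the aligner, build, annotation or strand setting. Without molecular identifiers, PCR copies of a molecule each add to the counts. Columns were matched to samples by title. No replicate pair was a duplicate deposit (chi-square of their counts 13.5 to 56.2 per gene).

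The test was that of edgeR 4.0.16 under R 4.3.3 (filterByExpr at a minimum count of 10, TMM, glmQLFit and glmQLFTest, group as the only term, 2-sided); a standard error is the size of the log2 fold change divided by the root of F. Of the genes tested, 82.4% had a coding transcript in GENCODE 29, whose length, GC content and 3' UTR were used.

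The members and lists were chosen with earlier results of these data known. Every member is named; per-library values go to called members and to the 3 most abundant per kilobase in each class, and STX7, STX16 and STX17 were added after their values were seen. List genes not found in the table were not analysed here. As alternatives DESeq2 1.42.0 and limma-voom 3.58.1 replaced the test, the scaling was RLE, upper-quartile or total-count, the filter was dropped or raised to a minimum count of 50, the replicate block was added, each library was left out, and changes were corrected for length and GC content (4-df splines) beside the same genes without it. For the ratios, leaving out libraries was added after the data were seen.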

Additional observations from a re-analysis of the deposited data

How the results depend on the processing

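The 6 calls among the members became 10 with DESeq2 (5 higher, 5 lower), 3 after correction for length and GC content and 2 with the replicate block (STX12 and GOSR1, where 2.81% of all genes passed), and between 0 and 9 with a library left out. Upper-quartile scaling gave 4 higher and 4 lower members, and 1005 higher and 890 lower of all genes, against 645 and 934. Over all genes 1579 calls became 2926 with DESeq2, 844 without a filter, 438 with the block, 576 after the correction, and between 203 and 2563 with a library left out. The 6 calls among the 81 genes tested in the partner lists became 14 with DESeq2, 2 with the block and 1 after the correction. Over all genes the shares there were 25.8% (of those with an adjusted p), 2.81% and 4.49%. With a library left out, between 0 and 13 of the partner genes passed, and between 1.28% and 16.1% of all genes. Same-numbered libraries did not deviate together (correlations of -0.18, -0.03 and 0.15 for numbers 1, 2 and 3), so the numbers were not taken as pairs; si replicate 2 correlated best with sinc replicate 1 (0.32), not with its own number. SOGA1 kept its direction and its call under all 16 alternatives, and the 6 called members kept their directions.

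Signs turned for members that did not pass. After the correction STX1A stood at -0.017, STX4 at -0.030, GOSR2 at -0.044, STXBP2 at -0.066, STX10 at -0.092, BET1L at -0.11, VAMP1 at -0.16, VAMP7 at 0.047, SNAP23 at 0.058, VTI1A at 0.097, VTI1B at 0.22, STX6 at 0.25, VAMP4 at 0.26, SEC22B at 0.44 and STX7 at 0.47. VAMP1 and SNAP29 stood at -0.0040 and -0.015 with total-count scaling and at -0.0090 and -0.021 without a filter. With a library left out, STX2 ranged from -0.047 to 0.12, STX6 from -0.074 to 0.0022, VAMP1 from -0.086 to 0.086, VAMP2 from -0.20 to 0.093, VAMP3 from -0.055 to 0.24, VAMP5 from -0.96 to 0.24, SNAP29 from -0.047 to 0.059, SEC22B from -0.11 to 0.0024, GOSR2 from -0.043 to 0.077 and NSF from -0.026 to 0.15. The cause was not tested. With a library left out, the ratio of the group means, si over sinc, ranged from 2.24 to 2.43 for STX12 to STX7, 0.485 to 0.561 for NAPG to NAPA, 0.308 to 0.446 for STXBP3 to STXBP2, 0.625 to 0.652 for GOSR1 to GOSR2 and 0.631 to 0.674 for BET1 to BET1L. SNAP25 and VAMP5 had few counts, and those of VAMP5 also spread widely over the si libraries (6, 36 and 13 in replicates 1, 2 and 3).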
